A study of Homo sapiens with 4 samples.

Results

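The expression of the genes that write, read and erase DNA methylation was analysed in HML58-3 cells. The genes taken as members were *DNMT1*, *DNMT3A*, *DNMT3B*, *DNMT3L*, *UHRF1*, *TET1*, *TET2*, *TET3* and *MBD2*, and a probe was assigned to a member when the RefSeq accession given for the probe belonged to that gene. In this way 16 of 58201 gene probes were found for 8 of the 9 genes, and no probe was assigned to *TET3*. HML58-3 is a derivative of HCT116, a human colon cancer cell line, in which a methylated marker promoter drives a luciferase reporter. Cells were treated with mock, 1 μM of decitabine (DAC), 1 μM of OR-2003 or 1 μM of OR-2100, the last 2 being prodrugs of DAC. The drugs were dissolved in DMSO and added on day 1, and on day 5 the cells were taken for total RNA. There was 1 one-colour array for each condition, so that no difference has a replicate check, no test was run, and the 3 drugs share the same mock array. Whether HML58-3 was grown from 1 clone is not given in the sources used here.

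DNMT1 copies methylation onto the new DNA strand at each replication, and UHRF1 brings it there by binding DNA that is methylated on only one strand. DNMT3A and DNMT3B set new methylation, with DNMT3L as a partner that has no catalytic activity of its own. TET1, TET2 and TET3 oxidise methylated cytosine, which opens the way to its removal, and MBD2 binds methylated DNA and brings the NuRD complex, which carries histone deacetylases. DAC is built into DNA in place of deoxycytidine and traps the DNMT proteins there, after which they are degraded. The arrays measured RNA, and the proteins were not measured in these files.

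Methylation sits at CpG sites and DAC lowers it, so the bases upstream of the members are shown first. RefSeq (GRCh38.p14) gave 19 promoter windows for 8 of the genes, *TET3* included, and none was found for *DNMT3L*. The 250 bases before the start held 21 CpG sites in *DNMT1* and in *MBD2*, from 12 to 33 in the 6 windows of *DNMT3A*, and 28, 32 and 41 in the 3 windows of *UHRF1*. They held 9, 4 and 11 in *TET1*, 10 and 34 in *TET2*, 37 and 27 in *TET3*, and 3 in the window of *DNMT3B*. The median of all 35116 windows was 11 CpG sites. The window of *DNMT1* and that of *DNMT3B* are printed to show a CpG-rich and a CpG-poor window, with the CpG sites in capitals. Each was the only window found for its gene, and other starts of these genes were not examined. Which start gave the RNA measured by the probes is not known here, so the windows do not describe the genes as a whole.
DNMT1, chr19:10194954-10195203, minus strand: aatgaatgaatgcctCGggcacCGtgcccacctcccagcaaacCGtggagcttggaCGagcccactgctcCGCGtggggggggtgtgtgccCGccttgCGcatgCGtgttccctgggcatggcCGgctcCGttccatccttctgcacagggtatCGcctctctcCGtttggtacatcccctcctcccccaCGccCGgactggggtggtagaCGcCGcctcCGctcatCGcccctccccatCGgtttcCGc
DNMT3B, chr20:32779602-32779851, plus strand: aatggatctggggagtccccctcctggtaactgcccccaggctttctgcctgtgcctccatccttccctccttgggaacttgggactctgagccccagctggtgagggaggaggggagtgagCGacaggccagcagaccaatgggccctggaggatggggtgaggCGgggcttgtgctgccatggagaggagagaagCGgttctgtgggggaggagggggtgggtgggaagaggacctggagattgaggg
The arrays measured RNA and not methylation at these bases.

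*DNMT1* and *UHRF1* are known as genes expressed with DNA replication, many of which are under E2F factors. The E2F-type letters TTTCGCGC and TTTGGCGC were therefore searched on both strands of the 300 bases around each start, from 250 before to 50 after. They were found in 1.15% of all windows, in 2 of the 19 windows of the members, and in 7 of the 22 windows of the DNA replication genes, or 31.8%. The matches in the members are printed with the matching letters in capitals. That in *DNMT1* reads TTTCGCGC on the other strand and its first base lies 2 bases before the start, and that in *UHRF1* lies 160 bases before the start of its second window.
DNMT1, chr19:10194937-10194966, minus strand: catcggtttccGCGCGAAAagccggggcgc
UHRF1, chr19:4909973-4910002, plus strand: cccgagcccgaTTTCGCGCgccctgagttc
A match gives the letters only, and binding of a factor was not measured.

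Levels are log2 intensities from which the 75th percentile over the gene probes of the same array was subtracted. The colon epithelial genes *KRT8*, *KRT18* and *KRT19* were at 6.41, 8.78 and 9.34 on the mock array, and 7 of 8 epithelial markers exceeded the background there, the exception being *VIL1*. On the drug arrays all 8 were, and the summed log2 level of the list was 10.4 without drug and from 10.6 to 10.7 with the drugs. With DAC the 3 keratins differed from mock by 0.59, 0.59 and 0.38, and *EPCAM* and *CDH1*, which join epithelial cells, by -1.49 and -1.09. Of 10 markers of blood, endothelial and stromal cells, 7 exceeded the background without drug, 9 with DAC, 9 with OR-2003 and 10 with OR-2100. Their summed log2 level was 2.09 without drug and from 3.60 to 3.64 with the drugs, with *CD14* higher by 1.70, 1.70 and 1.71. The part of these markers in the results below was not tested, and in bulk RNA a change in the share of cells and a change in RNA per cell cannot be told apart. From 31601 to 33282 probes per array exceeded the background and no spot was saturated. Precision is limited by the number of arrays and, for dim probes, by the background.

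The spread between spots of the same probe on an array was read from 300 probes that each have 10 spots. The SD of the difference between 2 such spots was 0.085 on the log2 scale for levels of 2 and over, 0.10 for levels from 0 to 2, 0.15 from -2 to 0, and 0.29 from -4 to -2. This spread leaves out the culture, the labelling and the hybridisation. The 3 drug arrays also differed little from each other for bright probes, and more for dim ones. Over 7676 probes with levels of 2 and over, the SD was 0.091 for OR-2003 minus DAC, 0.125 for OR-2100 minus DAC and 0.125 for OR-2100 minus OR-2003. Over 6525 probes with levels from -4 to -2 it was 0.31, 0.36 and 0.40 in the same order.

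*DNMT1*, the maintenance methyltransferase, had a level of 3.98 on the mock array, 3.68 with DAC, 3.80 with OR-2003 and 3.60 with OR-2100. The 3 drug arrays were below the mock array, with differences of -0.30, -0.18 and -0.38 on the log2 scale. These sizes were 1.23-, 1.13- and 1.30-fold. With the 75th percentile of all gene probes at 0, the bulk of the probes differed the same way. The median difference of the 27921 probes above background on all 4 arrays was -0.21 with DAC, -0.19 with OR-2003 and -0.23 with OR-2100. Set against that median, *DNMT1* differed by -0.09, 0.01 and -0.15. The median itself turned to 0.02, 0.11 and 0.03 when the percentile was taken over probes above background. A difference at or below that of *DNMT1* was found in 43.9% of those probes with DAC, 50.9% with OR-2003 and 40.0% with OR-2100. The *DNMT1* transcript thus lay in the middle of the measured probes with each drug, and with OR-2003 the sign of its difference turned to 0.12 when the percentile was taken over probes above background.

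*UHRF1*, the partner that reads newly replicated DNA, was measured by 2 probes. The brighter, A_23_P208880, had levels of 3.45 on the mock array, 3.29 with DAC, 3.20 with OR-2003 and 2.93 with OR-2100. The differences to mock were -0.16, -0.25 and -0.52, and set against the median of measured probes they were 0.05, -0.06 and -0.29. With OR-2100 the gene was 1.44-fold lower, and 31.6% of measured probes were as low or lower. The signs with DAC and OR-2003 turned under the percentile of probes above background, to 0.06 and 0.04. The other probe, A_33_P3379454, was made for another transcript and gave 0.36, 0.35, 0.33 and 0.31, so that its differences to mock were -0.01, -0.03 and -0.06. The 2 probes therefore did not show the same difference with OR-2100.

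**Figure D1:**
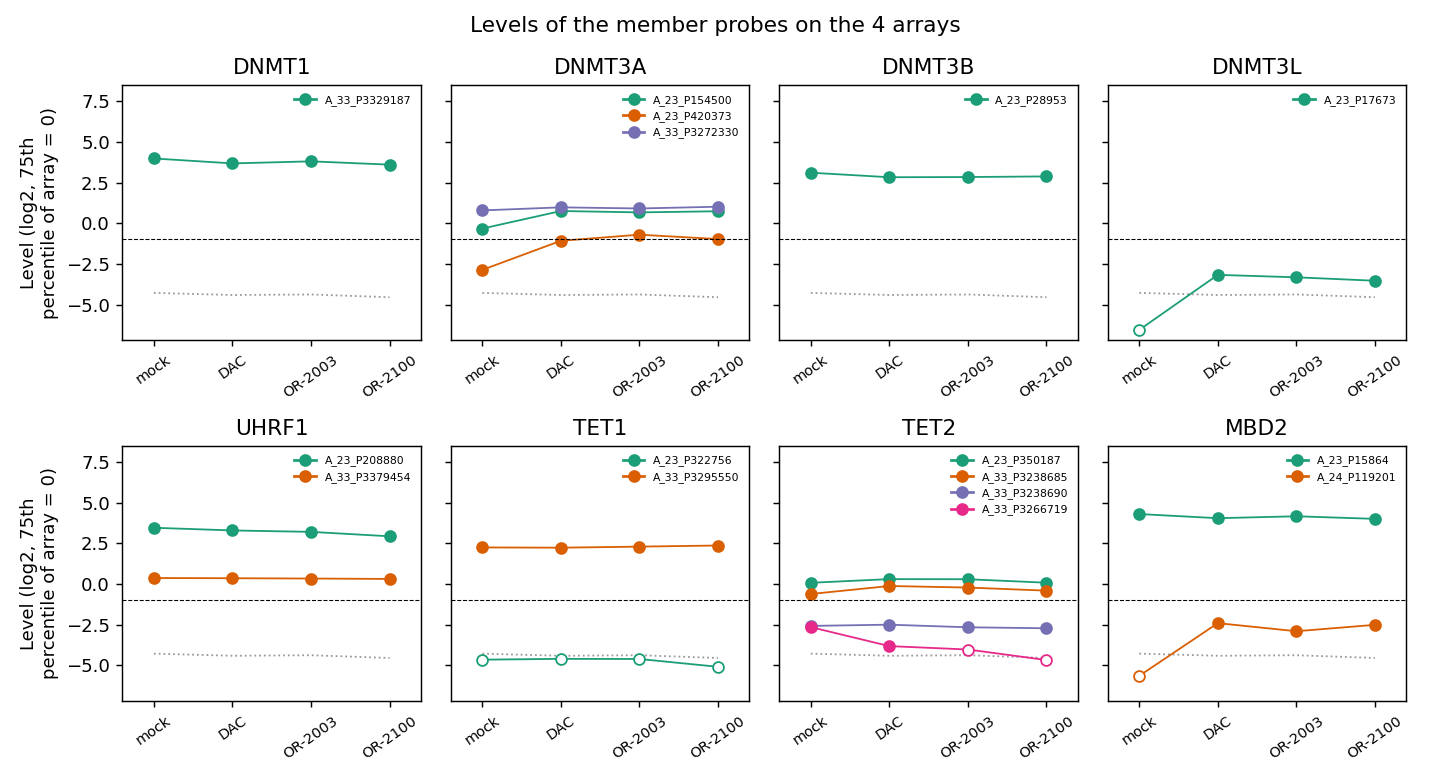
Levels of the 16 member probes on the mock, DAC, OR-2003 and OR-2100 arrays, as log2 intensity with the 75th percentile of each array at 0, with 1 array per condition and 1 colour per probe. Filled points are well above background and open points are not, the dotted line is the lowest level above background on each array, and the dashed line at -1 is the level a probe had to reach to be counted. The lines of *DNMT1*, *DNMT3B* and the brightest probes of *UHRF1*, *TET1* and *MBD2* run nearly flat, while 2 probes of *DNMT3A*, 1 of *DNMT3L* and 1 of *MBD2* lie higher on the 3 drug arrays.

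*DNMT3A*, a de novo methyltransferase, was measured by 3 probes that were above background on every array and that gave different answers. The brightest over the arrays, A_33_P3272330, had levels of 0.79 on the mock array, 0.97 with DAC, 0.90 with OR-2003 and 1.01 with OR-2100, or differences of 0.19, 0.12 and 0.23. A probe with the same accession, A_23_P154500, had levels of -0.33, 0.75, 0.66 and 0.73. Its differences of 1.08, 0.99 and 1.06 were 2.11-, 1.99- and 2.09-fold, and 93.4%, 92.4% and 93.2% of measured probes lay at or below them. The 2 probes share 1 accession, and what sets them apart cannot be seen here because the probe sequences were not used.

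The third *DNMT3A* probe, A_23_P420373, was made for another transcript of the gene. It had a level of -2.87 on the mock array, -1.08 with DAC, -0.71 with OR-2003 and -0.98 with OR-2100. These were differences of 1.79, 2.16 and 1.89, or 3.46-, 4.48- and 3.72-fold, and 97.1%, 97.8% and 97.2% of measured probes lay at or below them. The probe was dim on the mock array, with an intensity of 20.8 against 83.3, 102 and 89.3 on the drug arrays. With normexp background correction, which compresses dim values, the differences were 0.76, 0.98 and 0.86 for this probe and 0.66, 0.66 and 0.74 for A_23_P154500, all still above 0. The 3 drug arrays lay above the mock array for each of the 3 *DNMT3A* probes, except that the sign of the brightest turned with OR-2003 under scaling by the median, to -0.10, and by spike-ins.

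*DNMT3B*, the other de novo methyltransferase, had levels of 3.10 on the mock array, 2.83 with DAC, 2.84 with OR-2003 and 2.88 with OR-2100. Its differences of -0.28, -0.27 and -0.23 were within 0.08 of the median of measured probes, at -0.07, -0.08 and 0.00 from it, and turned to 0.03 with OR-2003 and 0.03 with OR-2100 under the percentile of probes above background. The 3 drug arrays differed from each other by 0.05 at most, but OR-2100 and OR-2003 by 0.17 under scaling by the median and 0.23 under spike-in scaling, and no spread between cultures can be set against these values.

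*DNMT3L*, the partner without catalytic activity, did not exceed the background on the mock array and did so on each drug array. Its level was -6.56 on the mock array, -3.18 with DAC, -3.33 with OR-2003 and -3.54 with OR-2100. The intensities were 1.6, 19.5, 16.6 and 15.1. Taken against the lowest level above background on the mock array, the gene was at least 2.16-fold higher with DAC, at least 1.94-fold with OR-2003 and at least 1.68-fold with OR-2100. It stayed below the level of -1 on every array, and with normexp the differences were 0.40, 0.29 and 0.23.

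*TET1*, a dioxygenase that starts demethylation, had levels of 2.24 on the mock array, 2.23 with DAC, 2.29 with OR-2003 and 2.36 with OR-2100 by probe A_33_P3295550. The differences were -0.02, 0.05 and 0.12, and those with DAC and OR-2003 turned sign under another scaling. The 4 arrays gave nearly the same level. The other *TET1* probe, A_23_P322756, was not well above background on any array.

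*TET2*, of the same family, was measured by 4 probes. The brightest, A_23_P350187, had levels of 0.07, 0.30, 0.29 and 0.08, in the order mock, DAC, OR-2003 and OR-2100, and A_33_P3238685 had -0.62, -0.13, -0.22 and -0.41. The second was higher by 0.49 with DAC, 0.39 with OR-2003 and 0.21 with OR-2100, and a dimmer probe, A_33_P3238690, differed by 0.08, -0.08 and -0.15. In these 3 probes the value with OR-2100 was the lowest of the 3 drugs, except that A_33_P3238690 was lowest with OR-2003 under scaling by the median and by spike-ins. The fourth, A_33_P3266719, made for a transcript of its own, had -2.65, -3.82, -4.03 and -4.68 and did not exceed the background with OR-2003 and OR-2100. It was 2.25-fold lower with DAC, at least 2.60-fold lower with OR-2003 and at least 3.72-fold lower with OR-2100, while with normexp the differences were -0.36, -0.29 and -0.36. Its levels were below -1 on all arrays, so that it was not counted, and it went in the opposite direction to A_33_P3238685.

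*MBD2*, the reader that brings NuRD to methylated DNA, had levels of 4.30 on the mock array, 4.04 with DAC, 4.16 with OR-2003 and 4.0 with OR-2100 by probe A_23_P15864. The differences of -0.25, -0.14 and -0.30 lay at -0.04, 0.05 and -0.07 from the median of measured probes, and that with OR-2003 turned to 0.16 under the percentile of probes above background. The second probe, A_24_P119201, was made for a RefSeq variant that is known as testis-specific. On the mock array it did not exceed the background, at -5.65, and it did so at -2.41, -2.91 and -2.51 on the drug arrays. This probe was at least 3.67-fold higher with DAC, at least 2.60-fold with OR-2003 and at least 3.41-fold with OR-2100, and 0.37, 0.28 and 0.31 higher on the log2 scale with normexp. The bright probe of *MBD2* lay below mock with DAC and OR-2100 under every scaling run, while the dim probe lay above it with each drug.

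**Figure D2:**
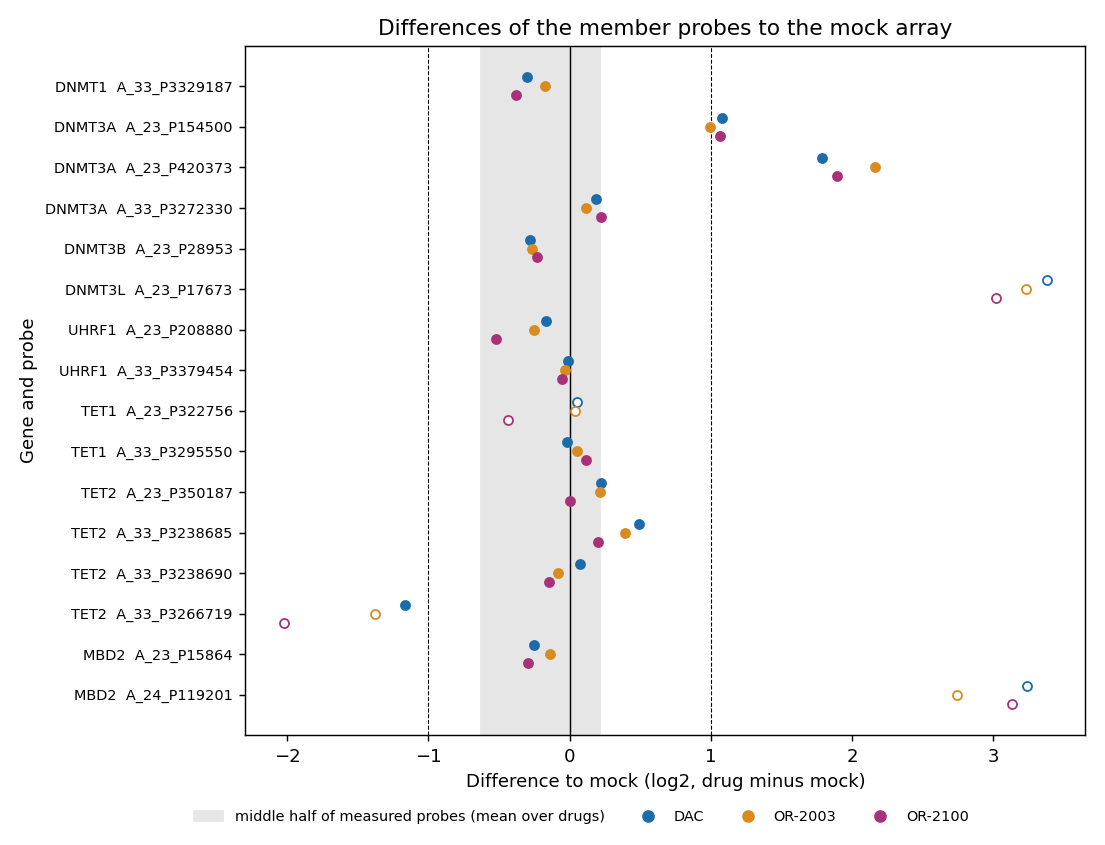
Differences of the 16 member probes to the mock array, as log2 drug minus mock, with 1 point per drug and 1 array per condition. Open points did not exceed the background on mock or on that drug array, the grey band is the middle 50% of 27921 measured probes as the mean of the 3 drugs, and the dashed lines at -1 and 1 mark 2-fold. The points of *DNMT1*, *DNMT3B*, *UHRF1* and the bright *MBD2* probe lie inside the band, and 2 *DNMT3A* probes lie to its right near or past 2-fold.

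With each gene represented by its brightest probe over the arrays, 0 of the 8 genes were at least 2-fold lower and 0 were at least 2-fold higher with any drug, where a call also needed a level of -1 or more on the brighter array. Among 25006 genes, 5.96% were lower and 5.77% higher with DAC, 6.05% and 5.89% with OR-2003, and 6.82% and 5.81% with OR-2100. At 1.5-fold the count of members was again 0 in both directions, beside 13.5% lower and 8.83% higher of all genes with DAC, 13.7% and 8.94% with OR-2003, and 14.8% and 8.83% with OR-2100. With shares of this size, a count of 0 among 8 genes is near the background at 2-fold. The median difference of the 8 genes was -0.09 with DAC, -0.04 with OR-2003 and -0.11 with OR-2100, beside -0.12, -0.09 and -0.23 over all named genes.

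Counted by probe, 0 of the 16 member probes were 2-fold lower with any drug. The probes 2-fold higher were 1 with DAC, A_23_P154500 of *DNMT3A*, 1 with OR-2003, A_23_P420373 of *DNMT3A*, and both of these with OR-2100. Of the 58200 probes with a value on all arrays, 4.03% were lower and 3.44% higher with DAC, 4.07% and 3.53% with OR-2003, and 4.49% and 3.5% with OR-2100. The probes called thus belonged to 1 gene, and which of its 2 probes passed depended on thresholds that both lay close to. A_23_P154500 was 1.99-fold higher with OR-2003 and A_23_P420373 reached -1.08 with DAC.

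The drugs were given at the same dose and time, and their arrays were compared in 3 pairs. Between OR-2003 and DAC 0 of the 8 genes differed 2-fold, beside 0.008% of all genes. The same held for OR-2100 against DAC, beside 0.008%, and for OR-2100 against OR-2003, beside 0.004%. The member with the widest range over the 4 arrays was *UHRF1*, at 0.52, and the narrowest was *TET1*, at 0.13. By its bright probe *UHRF1* with OR-2100 differed from DAC by -0.36, a difference as low or lower in 5.02% of measured probes, and from OR-2003 by -0.27, which became -0.14 under scaling by the median and -0.08 under spike-in scaling. Its second probe differed between OR-2100 and DAC by -0.04. *DNMT1* differed by -0.08 between OR-2100 and DAC and by -0.20 between OR-2100 and OR-2003, and both shrank under spike-in scaling, to -0.01 and -0.02. No error between cultures can be given for these differences, and a small difference between 2 arrays does not show that the compounds act alike.

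The DNA replication genes, among which *DNMT1* and *UHRF1* are often counted, went with the bright probe of *UHRF1* in the comparison of the drugs. All 19 of the replication genes on the array, out of 20 listed, were above background, and 19 of 19 were lower with OR-2100 than with DAC, with a median of -0.15 and with 18 or 19 of 19 lower under every scaling and background correction run. Over 15977 genes above background the median was -0.04, the same as the value of the second *UHRF1* probe, and 61.9% were lower with OR-2100. Against OR-2003 also 19 of 19 were lower with OR-2100, but 13 of 19 under scaling by the median and 8 of 19 under spike-in scaling. Against mock the median of the replication genes was -0.24 with DAC, -0.16 with OR-2003, where it turned to 0.13 under the percentile of probes above background, and -0.43 with OR-2100. *POLA1*, a subunit of the primase polymerase, was at 2.46 on the mock array and differed by -1.06, -1.01 and -1.14, and *MCM7*, of the replicative helicase, differed by -0.54, -0.50 and -0.66. *CCNE1*, the cyclin of S-phase entry, was higher by 0.91, 0.85 and 0.78, and *MCM4* by 0.36, 0.37 and 0.27. The list thus held genes in both directions, with *POLA1* as the 1 of 19 at least 2-fold lower with each drug and 0 higher. Under quantile normalization and the percentile of probes above background *POLA1* was not called with any drug, and *CCNE1* was 2-fold higher with each. Under normexp the call of *POLA1* was lost with OR-2003. Whether cells were in different phases of the cycle was not measured.

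The counts at 2-fold in each of the lists that follow stand beside the same shares of all genes, from 5.96% to 6.82% lower and from 5.77% to 5.89% higher. The 8 maintenance partners, which act with DNMT1 and UHRF1 at the fork, had medians of -0.51, -0.51 and -0.43. *USP7*, a deubiquitinase of UHRF1 and DNMT1, was at -0.64 on the mock array and at -1.76, -1.75 and -1.94 with the drugs, and was the 1 partner at least 2-fold lower with each drug, a call lost with each under normexp and the percentile of probes above background. *CDCA7*, which recruits the remodeller HELLS, differed by -0.74, -0.81 and -0.90 by its brightest probe, and a second probe by -0.37 as the mean over the drugs. *PCNA*, the sliding clamp, was higher by 0.58, 0.54 and 0.24, and *UHRF2*, a relative of UHRF1, differed by 0.03, 0.21 and 0.19, with signs that turned under other scalings with DAC and OR-2003. None of the 8 partners was 2-fold higher with any drug.

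Of 12 other readers of methylated or unmethylated CpG, 1 was 2-fold higher with each drug. This was *MBD1*, a repressor that binds methylated CpG, at 2.05 on the mock array and 3.80, 3.97 and 3.82 with the drugs. Its 3 probes above background all lay higher, by 0.54 to 1.81 as the mean over the drugs. *KDM2A*, a demethylase that binds unmethylated CpG, was higher by 0.80, 0.75 and 0.86. *MBD6* differed by -1.27, -1.19 and -1.04 and was at least 2-fold lower with each drug, joined with OR-2100 by *ZBTB4*. With OR-2100 both calls were lost under normexp, quantile normalization and the percentile of probes above background, and with OR-2003 that of *MBD6* under the last. A second probe of *MBD6* differed by -0.68 as the mean over the drugs. *MBD5* differed by -1.74, -1.54 and -1.46 from a level of -1.09, which is too dim to be counted. The readers with an MBD domain therefore differed from mock in both directions, while the bright probe of *MBD2* itself stayed near the median.

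In the NuRD complex that MBD2 brings, 10 of 11 listed genes were on the array. *MTA1*, a scaffold of the complex, was at 5.60 on the mock array and 4.54, 4.53 and 4.58 with the drugs, and was at least 2-fold lower with each drug, the 1 gene of the list so called. The call was lost with each drug under quantile normalization and the percentile of probes above background, and with DAC and OR-2100 under normexp. *HDAC1*, its deacetylase, was at 6.10 and then 5.15, 5.13 and 5.11, just under 2-fold with each drug and past it under scaling by the median and by spike-ins. *GATAD2A* was higher by 0.21, 0.23 and 0.14 by its brightest probe, but a second probe differed by -0.82 as the mean over the drugs. *CHD3* differed by -0.07, -0.04 and -0.01, with signs that turned under other scalings. The median of the list was -0.16, -0.23 and -0.24, beside -0.18, -0.17 and -0.21 for the measured genes, and turned to 0.06, 0.07 and 0.01 under the percentile of probes above background.

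Of the silencing cofactors, most of which are histone methyltransferases, 8 of 9 were on the array. With any drug 0 were at least 2-fold lower or higher than mock, except that *DPPA3* was counted as higher with OR-2003 under scaling by the median. *DPPA3* exceeded the background with OR-2003 only, at a level of -3.64 in the main scaling. *SETDB1*, which methylates histone H3 at silenced repeats, differed by -0.70, -0.71 and -0.74 by its brightest probe, but its 3 probes ran from -0.72 to -0.05 as means over the drugs. *EHMT2* differed by -0.47, -0.63 and -0.52. *NSD1* was higher by 0.26, 0.34 and 0.34, and *SETD2* differed by 0.27, 0.01 and 0.24, the sign with OR-2003 turning under other scalings. The medians were -0.32, -0.27 and -0.36, and that with OR-2003 turned to 0.03 under the percentile of probes above background.

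The genes of active demethylation and repair, which act with or after the TET proteins, numbered 18. *GADD45G*, a stress gene linked to demethylation, was at -1.83 on the mock array and at 0.25, 0.17 and 0.10 with the drugs, higher by 2.08, 2.0 and 1.93. It was the 1 gene of the list at least 2-fold higher with each drug. Under the percentile of probes above background its level stayed under -1, so that it was not called, with differences of 2.30, 2.29 and 2.19. *GADD45B* was higher by 0.47, 0.54 and 0.45. *IDH1*, which makes the 2-oxoglutarate that TET proteins use, was at 3.88 and then 2.41, 2.43 and 2.38. *OGT*, a glycosyltransferase that binds TET proteins, was at 5.01 and then 3.58, 3.63 and 3.65. *IDH1* and *OGT* were the genes at least 2-fold lower with OR-2003 and OR-2100, and *NEIL1* joined them with DAC but not under normexp, quantile normalization or the percentile of probes above background. The medians were -0.44, -0.49 and -0.51.

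The methyl donor cycle, which makes the S-adenosylmethionine that the DNMT proteins use, had the lowest medians of the pathway lists, at -0.54, -0.63 and -0.60. Of its 12 genes, 4 were at least 2-fold lower with DAC, 3 with OR-2003 and 3 with OR-2100, and 0 were higher with any drug, where the shares of all genes lower were 5.96%, 6.05% and 6.82%. *MAT2A*, *MAT1A* and *SHMT2* were among them with each drug. The shares include genes too dim to be called lower, while 10 of these 12 genes were above background on all arrays, so the 2 are not alike. With DAC, OR-2003 and OR-2100 the genes 2-fold lower numbered 1, 1 and 0 under the percentile of probes above background. They numbered 2, 2 and 2 under normexp and 3, 2 and 1 under quantile normalization. Under scaling by the median *BHMT* was counted as higher with each drug. It did not exceed the background on the mock array, and lay at -3.32, -3.29 and -3.69 with the drugs in the main scaling. With 0 at the median of the probes, the level of -1 lets dimmer probes be counted. *MAT2A*, the enzyme that makes the donor in most tissues, was at 5.85 on the mock array and 4.53, 4.47 and 4.61 with the drugs. Its 2 probes differed by -1.31 and -1.37 as the mean over the drugs. *MAT1A*, the form of liver, differed by -1.22, -1.10 and -1.18. *SHMT1* differed by -0.25, -0.39 and -0.36, with a second probe that was higher by 0.33 as the mean over the drugs. These values describe 12 genes chosen as a pathway, and no test of the list was run.

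**Figure D3:**
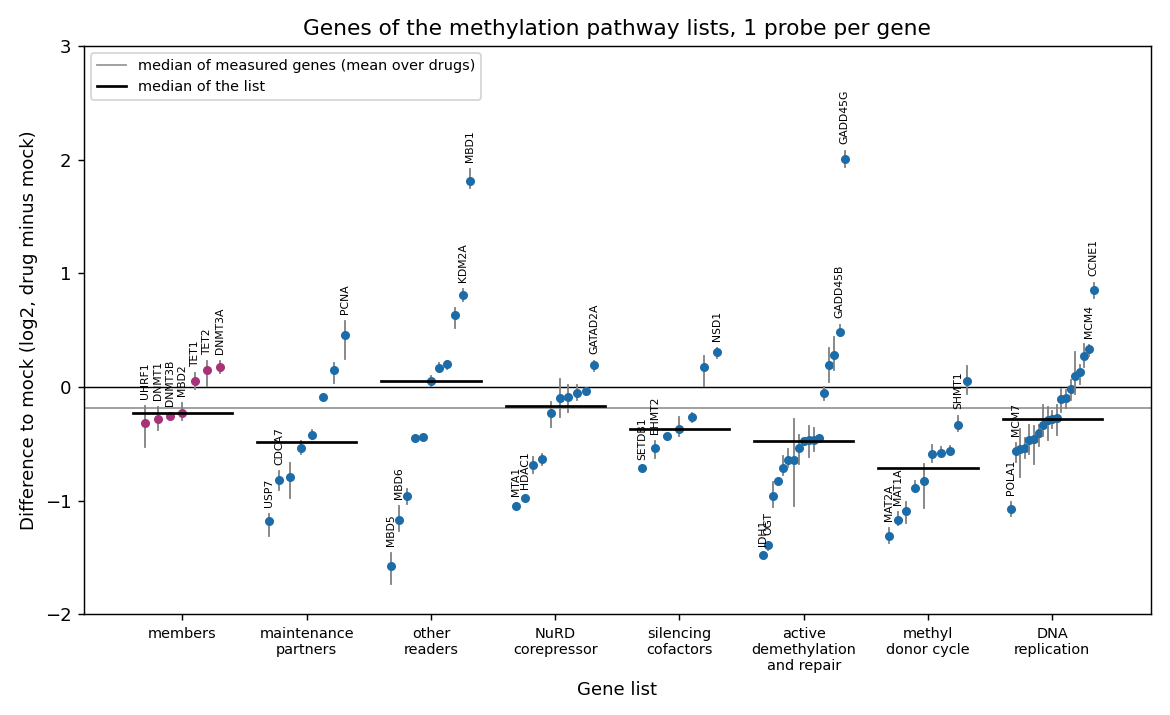
Differences to mock (log2, drug minus mock) of the genes above background on all 4 arrays, by gene list, with 1 probe per gene and 1 array per condition. Points are means over the 3 drugs, vertical lines run from the lowest to the highest drug, thick lines are list medians, the grey line is the median of 15977 measured genes, and names are given to the members and to those of the 2 highest and 2 lowest of each other list whose signs held under every setting run. The means of the members lie within 0.4 of 0, while *MBD1* and *GADD45G* lie near 2 and several genes of the other lists lie below -1.

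The genes with the pattern most like *DNMT1* over the 4 arrays were *INPP5K*, *DDT*, *PCID2*, *NAA16* and *RBM22*, by the root mean square difference of levels centred on each gene, which was 0.0086 for *INPP5K*. Within 0.05 of *DNMT1* lay 337 of 15976 genes. For *UHRF1* the nearest were *TNS2-AS1*, at 0.017, then *SLC39A8*, *LINC02731*, *MARVELD2* and *PITHD1*, and 65 genes lay within 0.05. The likeness rests on 4 arrays, and with so many genes close by, the order of the nearest carries little.

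How far the differences moved with the scaling and the background correction is plotted for 4 member probes. *DNMT1* ran from -0.42 to -0.08 with DAC and from -0.47 to -0.12 with OR-2100, so that its level stayed below mock there under each of these settings. The bright *UHRF1* probe with OR-2100 ran from -0.61 to -0.27. The dim probes of *DNMT3A* and *MBD2* moved most under normexp and stayed above 0 under each.

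**Figure D4:**
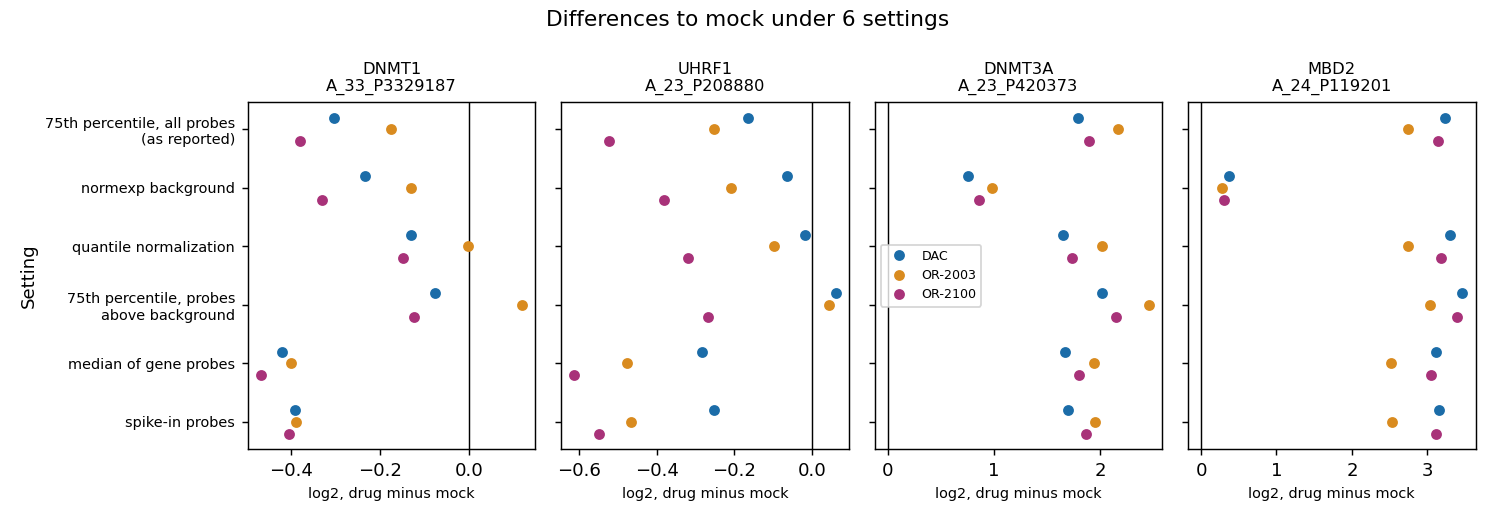
Differences to mock (log2, drug minus mock) of 4 member probes under 6 ways of processing, with 1 point per drug and 1 array per condition. For *DNMT1* with OR-2003 the points run from -0.40 to 0.12 and cross 0, for the *DNMT3A* probe they stay above 0 with the lowest values under normexp, and for the dim *MBD2* probe normexp gives from 0.28 to 0.37 where the other settings give over 2.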

How the data were processed

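RNA of mock-, DAC-, OR-2003- and OR-2100-treated HML58-3 cells had been hybridised to Agilent one-colour arrays, 1 per condition, on 1 slide. The authors deposited the spot intensity after background correction by Agilent Feature Extraction 12.1.0.3, per the file headers, and a table with the same intensity values. Control spots and spots marked as outliers or non-uniform were left out (52 to 98 per array). Spots of a probe were averaged as log2 intensity from the deposited values, and the 75th percentile of gene probes was subtracted. Probes were named by matching accessions to RefSeq (34892 probes, 25006 genes). A gene was represented by its probe with the highest mean level. Following the study's methods, a call needed 2-fold and a level of -1, and probes not above background were given bounds. All 9 members were named, with, per list, the 2 genes with the highest and the 2 with the lowest mean difference among those above background, except items that are not reported here. Members and lists were chosen with earlier results of these data known. Calling was tested on simulated shifts well past the threshold in brighter probes. That check does not bear on dim probes or on differences near the threshold. Alternatives covered scaling, background correction, the choice of probe and thresholds. Methylation arrays were not analysed here. Python 3.11.15, pandas 2.3.3, numpy 2.4.6, matplotlib 3.10.9, R 4.3.3 and limma 3.58.1 were used.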

Additional observations from a re-analysis of the deposited data

How the results depend on the processing

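No paired analysis was possible because there is a single array for each treatment, and no array could be left out for the same reason. The counts of members at least 2-fold lower, and 2-fold apart between drugs, stayed at 0 under every alternative run. The count of members 2-fold higher went from 0 to 1 with each drug under median scaling and without the level threshold. That gene was *DNMT3L*, which did not exceed the background without drug. The count was 2 with each drug, *DNMT3A* and *MBD2*, when all probes of a gene were averaged. For *MBD2* the average joined a bright probe, at -0.25, -0.14 and -0.30, to A_24_P119201, at 3.24, 2.74 and 3.13. The latter did not exceed the background without drug, so this count does not show a rise of *MBD2*. With the probe of largest difference the count was 1 with OR-2003 and OR-2100, *DNMT3A*.

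The median difference of the members with DAC, OR-2003 and OR-2100 was 0.14, 0.25 and 0.14 under the 75th percentile of probes above background and -0.21, -0.27 and -0.20 under median scaling. Under quantile normalization it was 0.069, 0.11 and -0.0041, and under spike-in scaling it was -0.18 with DAC and -0.26 with OR-2003. With genes above background only it was -0.14 with OR-2003 and -0.23 with OR-2100, and with the probe of largest difference -0.30 with OR-2100. At the median over the measured probes, the differences to mock moved by 0.23, 0.30 and 0.26 under the first scaling. They moved by -0.12 and -0.22 with DAC and OR-2003 under the median, and by -0.21 with OR-2003 under spike-ins. Under quantile normalization the median difference of the measured probes with OR-2100 went from -0.23 to -0.18. Of 48 differences of member probes, the sign turned in 12, 7, 6, 6 and 5 under the percentile of bright probes, the median, quantile, spike-in and normexp settings. The series table held the same values as the scanner files and changed none. For probes near background normexp moved the values most.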
